A study of Mus musculus with 24 samples.

Results

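*Svop* and its 4 relatives *Svopl*, *Sv2a*, *Sv2b* and *Sv2c* were followed through 24 RNA sequencing libraries of irradiated mouse astrocytes. They are 5 of the 49315 genes listed in each library, taken by gene symbol, and all 5 were found in the files. *Svop* was picked because of its level 24 h after 2 Gy, so its values in every comparison that uses those libraries, or the mock-irradiated ones at 24 h, are given as a description, without a test. The other 4 were taken for their relation to *Svop*. The comparisons address whether the dose-related pattern of *Svop* is shared by its relatives.

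The cells were primary cortical astrocytes of wild-type C57BL/6J mouse embryos at embryonic day 18.5, used at passage 1. Cells of all embryos of 1 pregnant mouse were pooled, so a library stands for a pooled culture and not for an animal. Cells received 0 Gy (mock irradiation), 0.1 Gy or 2 Gy of X-rays and were lysed after 6 h or 24 h, with 4 libraries, numbered 1 to 4, for each of the 6 groups. No genetic change or drug was part of the design.

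SV2 proteins and SVOP, the SV2-related protein, are membrane proteins of synaptic vesicles with the fold of the major facilitator superfamily of transporters. SV2A occurs in most neurons and in neuroendocrine cells and is the binding site of the antiepileptic drug levetiracetam, SV2B and SV2C have more restricted distributions in the brain, and the SV2 proteins serve as receptors of botulinum neurotoxins. SVOP and SVOP-like (SVOPL) resemble the organic ion transporters of the SLC22 family. These genes are known from neurons more than from astrocytes.

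A stretch of 90 coding bases shows the 5 genes where *Svop* and *Sv2a* are most alike. It is the in-frame stretch of *Svop* with the most bases identical to *Sv2a* without gaps. Each relative is shown by its own in-frame stretch that best matches it. It was read from the GENCODE M21 transcripts (GRCm38). In *Svop* it covers coding bases 232 to 321 in exons 3 and 4, and capitals mark each base that differs from *Svop* at the same position.
Svop: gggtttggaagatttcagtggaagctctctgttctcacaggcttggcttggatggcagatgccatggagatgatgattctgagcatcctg
Svopl: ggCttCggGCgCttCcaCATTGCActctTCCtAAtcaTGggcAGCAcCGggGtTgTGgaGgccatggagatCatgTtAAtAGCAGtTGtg
Sv2a: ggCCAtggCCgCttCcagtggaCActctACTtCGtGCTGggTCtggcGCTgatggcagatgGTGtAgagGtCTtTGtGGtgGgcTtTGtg
Sv2b: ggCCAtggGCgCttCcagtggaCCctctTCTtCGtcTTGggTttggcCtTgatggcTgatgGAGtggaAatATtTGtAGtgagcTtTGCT
Sv2c: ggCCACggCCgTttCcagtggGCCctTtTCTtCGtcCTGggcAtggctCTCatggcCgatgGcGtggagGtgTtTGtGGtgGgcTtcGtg
In this stretch 48 bases of *Svopl*, 52 of *Sv2a*, 54 of *Sv2b* and 54 of *Sv2c* were the same as in *Svop*. Over the whole coding sequences, *Svop* shared 54.2% to 55.0% of aligned bases with its relatives, whereas the 3 SV2 genes shared 66.3% to 67.9% with each other. No run of 31 bases in the exons of *Svop* occurred in another member. Only *Sv2b* and *Sv2c* had such runs in common, 2 of them.

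*Svop* (ENSMUSG00000042078) occupies chr5:114026910-114091570 of GRCm38 (minus strand) and has 4556 bases of exons. *Svopl* (ENSMUSG00000029830) is found at chr6:37983739-38046996 (minus) and *Sv2a* (ENSMUSG00000038486) at chr3:96181151-96195521 (plus). *Sv2b* (ENSMUSG00000053025) is at chr7:75114894-75309262 and *Sv2c* (ENSMUSG00000051111) at chr13:95954594-96132577, both on the minus strand.

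*Svop* overlaps *Usp30*, the gene of a mitochondrial deubiquitinase, on the opposite strand. The spans share 26110 bases, but the exons share only 161 bases, which is 3.53% of the exon bases of *Svop*. Whether strand was used in counting is not stated, so reads in those shared bases cannot be assigned with certainty. Of the other members, *Sv2b* shared 47 exon bases with 1500012K07Rik, which held 3 counts in all libraries together.

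**Figure D1:**
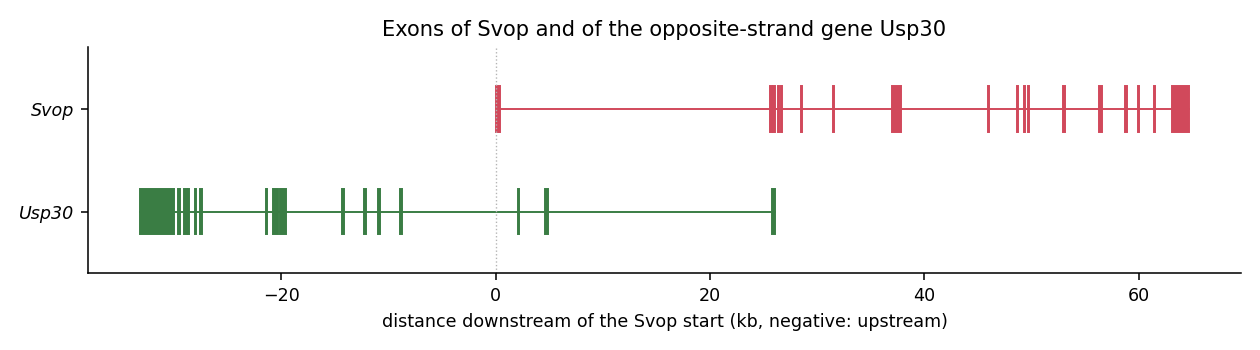
Exon blocks of *Svop* and *Usp30* against the distance from the *Svop* start in kb, positive in the direction of *Svop* transcription. The exons of the 2 genes overlap in a single place, about 26 kb into *Svop*, over 161 bases.

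Total counts ranged from 14742855 to 38194800 per library, and the group medians from 21825213 to 30717634.5. CPM below are counts relative to the library total, with TMM factors computed over the 24 libraries. The astrocyte markers *Gfap*, *Aqp4*, *Slc1a3* and *Aldh1l1* averaged 517.7, 540.2, 479.8 and 306.6 CPM. All 12 astrocyte markers were counted in each group, with sums between 2461 and 3523 CPM per library. The lowest were *Gjb6* and *S100b*, with means of 0.162 and 2.815 CPM, and *Gjb6* was at 0 in at least 1 library. The 14 neuron markers summed to 480.7 to 830.3 CPM, mostly from *Map2* and *Stmn2* (means of 223.1 and 214.2 CPM). *Tubb3*, *Gap43* and *Celf4* averaged 67.9, 47.3 and 19.4 CPM, and the rest 8.50 CPM (*Elavl3*) or less. Among the low ones, the defining neuronal gene *Rbfox3* averaged 0.254 CPM and was at 0 in at least 1 library. The 12 oligodendrocyte lineage markers summed to 410.7 to 899.1 CPM and the 14 fibroblast and vessel markers to 4246 to 8767 CPM. The last sum came mostly from the contractile genes *Acta2* and *Tagln* and the collagen gene *Col1a1* (means of 4445, 885.1 and 454.9 CPM), while the endothelial genes *Kdr*, *Cdh5*, *Pecam1* and *Cldn5* averaged 10.8, 1.963, 0.704 and 0.00657 CPM.

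The libraries of number 2 stood apart in all 6 groups. Their 14 microglia markers summed to 353.3 to 419.9 CPM, against 2039 to 3501 CPM in the libraries of numbers 1, 3 and 4, and their neuron markers to 719.9 to 830.3 CPM, against 480.7 to 622.9 CPM. Their oligodendrocyte lineage markers had a median sum of 823.5 CPM, against 480.3 to 591.8 CPM, and their astrocyte markers one of 2659 CPM, against 2901 to 3463 CPM. *Svop*, *Sv2b* and *Sv2c* were each highest in the number 2 library in 6 of 6 groups and *Sv2a* in 4 of 6. The part of these markers in the levels of the 5 genes was not tested, and the main values of *Svop* and *Sv2a* are given with and without number 2. In bulk RNA, more cells of a type and more RNA per cell cannot be told apart.

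*Svop* was counted in every library, with 13945 counts in total. In mock-irradiated cells at 6 h it stood at 10.9, 28.7, 4.77 and 7.84 CPM in numbers 1 to 4. The same numbers had, at 6 h after 0.1 Gy, 10.2, 32.4, 4.596 and 9.90 CPM, and at 6 h after 2 Gy they had 22.3, 40.5, 14.5 and 13.5 CPM. Numbers 1, 3 and 4 lay below 11 CPM without irradiation or after 0.1 Gy, and above 13 CPM after 2 Gy, while number 2 was high throughout.

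In mock-irradiated cells at 24 h *Svop* stood at 15.3, 28.1, 14.0 and 13.9 CPM. At 24 h after 0.1 Gy it reached 19.3, 44.8, 16.9 and 22.1 CPM, and at 24 h after 2 Gy 46.6, 65.1, 37.4 and 39.1 CPM. The 4 libraries at 24 h after 2 Gy were all above the 4 mock-irradiated libraries, as 0.944% of the 15892 genes tested were, which is the comparison *Svop* was chosen on. The summed oligodendrocyte lineage markers at 24 h averaged 574.6 CPM in mock-irradiated cells, 729.0 CPM after 0.1 Gy and 717.8 CPM after 2 Gy (410.7 to 834.4 CPM per library at 6 h), and their part in the *Svop* levels was not tested.

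**Figure D2:**
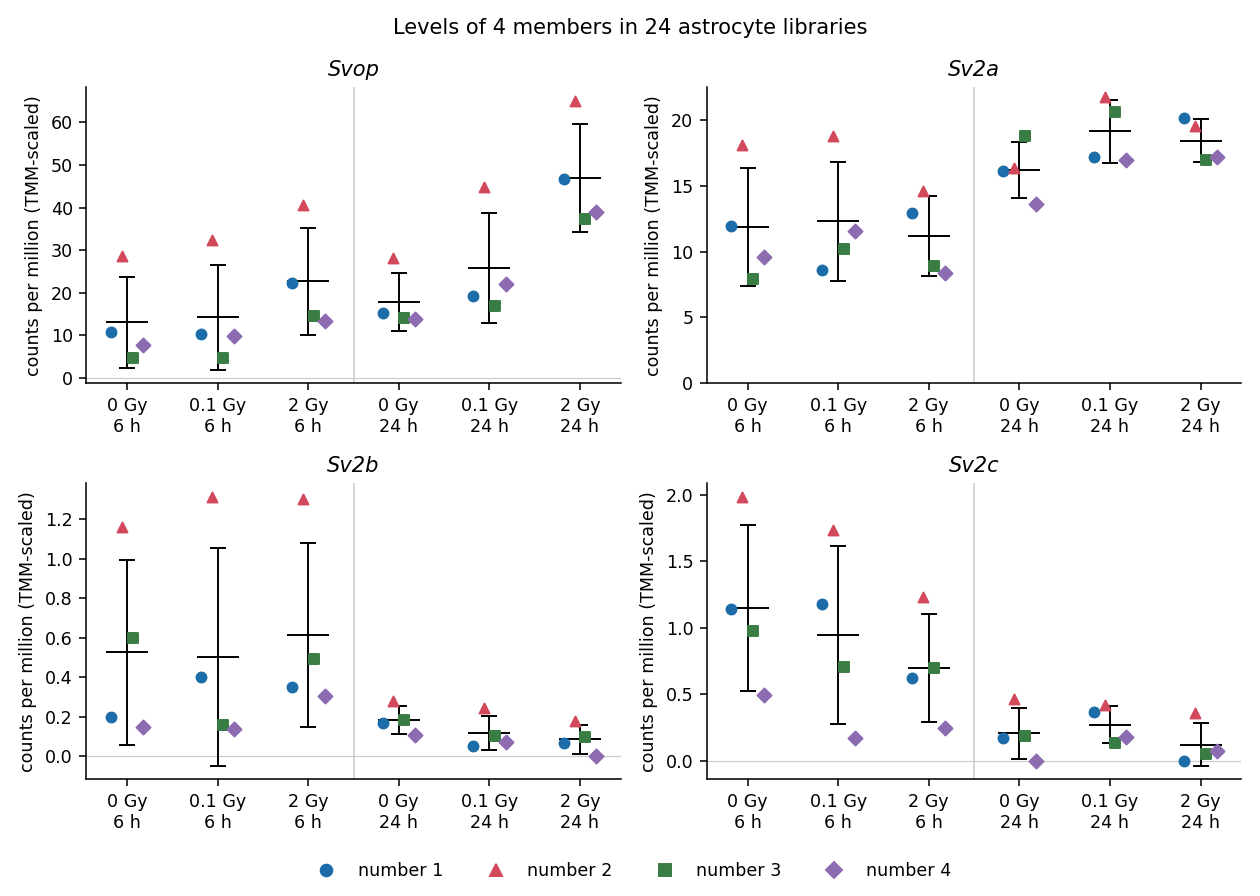
CPM of *Svop*, *Sv2a*, *Sv2b* and *Sv2c* in each library, with the mean and SD of the 4 libraries of a group and a symbol for each library number. *Svop* is highest at 24 h after 2 Gy, *Sv2a* lies between 7.92 and 21.8 CPM throughout, and *Sv2b* and *Sv2c* are low, with their highest values at 6 h.

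The group means of *Svop* in rising order were 13.1 ± 10.7 CPM (SD, n = 4) for mock-irradiated cells at 6 h, 14.3 ± 12.4 at 6 h after 0.1 Gy, 17.8 ± 6.89 for mock-irradiated cells at 24 h, 22.7 ± 12.5 at 6 h after 2 Gy, 25.7 ± 12.9 at 24 h after 0.1 Gy and 47.0 ± 12.7 at 24 h after 2 Gy. Of the neighbours in this order, only the last pair differed by more than the SD of either group. The SDs were carried by number 2. Without it the means at 24 h were 14.4 ± 0.779 CPM in mock-irradiated cells, 19.4 ± 2.60 after 0.1 Gy and 41.0 ± 4.90 after 2 Gy (n = 3), and those at 6 h were 7.82 ± 3.04, 8.24 ± 3.16 and 16.8 ± 4.84.

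Relative to mock at 24 h, *Svop* after 2 Gy was 3.05, 2.32, 2.68 and 2.81 times the mock-irradiated library of the same number. The geometric mean was 2.70-fold. The fitted log2 fold change was 1.41 (95% interval 0.74 to 2.07), the fifth highest among the 15892 genes tested, and 1.51 without number 2. With the library number as a block it was 1.43 (1.21 to 1.66). The block fits with all 24 libraries and with a correction for GC content and length gave 1.43 and 1.22, and 9.67% and 1.29% of genes were called higher in them. Against 0.1 Gy at 24 h, the fitted difference was 0.88, and 0.95 with the block. The block fit with all 24 libraries and the GC-corrected block fit called 0.0288% and 0.0501% of genes higher in that comparison, and the plain block fit 0%. These values are descriptive, since they rest on the libraries that led to the choice of *Svop*.

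The libraries at 6 h played no part in that choice. At 6 h after 2 Gy, *Svop* was 2.06, 1.41, 3.04 and 1.72 times the mock-irradiated library of the same number, higher in 4 of 4 pairs, as were 8.77% of the 15994 genes tested. The groups overlapped, with number 2 of the mock-irradiated cells above 3 of the libraries after 2 Gy. The log2 fold change was 0.79 (SE 0.56, 95% interval -0.48 to 2.07), which did not pass in edgeR's quasi-likelihood test (adjusted p = 1.00), with 0% of genes called and 1.34% at an unadjusted p under 0.05. With the library number as a block it was 0.95 (SE 0.17, 0.56 to 1.33) with an adjusted p of 0.18 and an unadjusted p of 0.000386. The block fits over all 24 libraries (0.97, adjusted p = 0.0058) and with a correction for GC content and length (1.00, adjusted p = 0.0081) called it, as they did 0.369% and 0.771% of genes as higher. The call thus rests on a fit with the block. Without number 2 the unblocked value was 1.10 and was not called, and leaving out number 2 of only 1 group gave 0.36 (the 2 Gy library) or 1.53 (the mock-irradiated one).

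After 0.1 Gy the differences were smaller. At 6 h *Svop* was higher than mock in 2 of 4 pairs, with a log2 fold change of 0.13 (SE 0.68, adjusted p = 1.00 in edgeR, with 0.15% of genes at an unadjusted p under 0.05). It was 0.089 without number 2, and -0.67 or 0.87 without number 2 of only the 0.1 Gy or only the mock-irradiated libraries. The interval of the block fit, -0.12 to 0.32, does not reach the value fitted after 2 Gy at that time. At 24 h *Svop* was higher in 4 of 4 pairs, by 1.21 to 1.59 times, as were 16.3% of the 16183 genes tested. The fitted value was 0.53 (1.49% of genes had an unadjusted p under 0.05 and 0% were called), and 0.48 in the block fit (SE 0.11), which called 2.34% of genes higher and 4.5% lower. It was 0.28 in the block fit with the GC and length correction, 0.40 in that without number 2 and 0.44 in that without number 4. Without the block, leaving out number 2 of the 0.1 Gy libraries gave 0.11 and leaving out number 2 of the mock-irradiated ones 0.83, while 0.41 was found without both. The values at 24 h are descriptive, since this comparison shares its mock-irradiated libraries with the one *Svop* was chosen on.

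**Figure D3:**
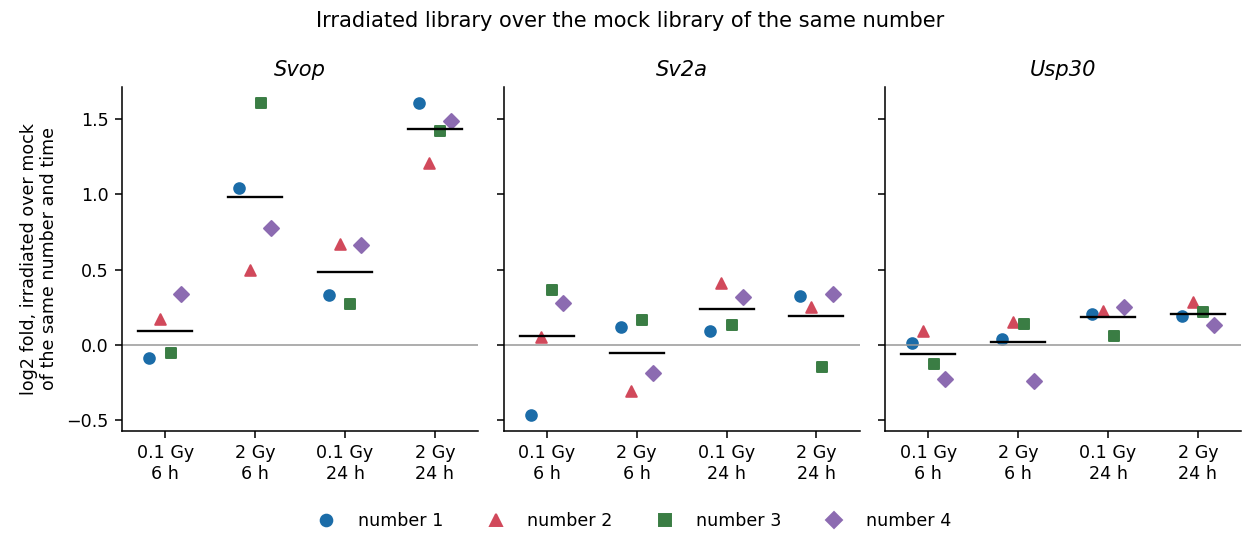
Log2 fold of the irradiated over the mock-irradiated library of the same number and time for *Svop*, *Sv2a* and *Usp30*, with the mean of 4 pairs as a line. *Svop* is above 0 in all 4 pairs after 2 Gy at both times, while the *Sv2a* pairs after 2 Gy fall on both sides of 0.

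*Usp30*, on the opposite strand, had group means between 40.4 and 46.6 CPM in all 6 groups. At 24 h after 2 Gy it was 1.10 to 1.22 times the mock-irradiated library, with a log2 fold change of 0.21 (adjusted p = 0.94 in edgeR and 0.12 with the block). At 6 h after 2 Gy it was 0.01 (adjusted p = 1.00). Its values at 24 h were higher in 4 of 4 pairs, as 20% of the genes tested were.

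*Sv2a* was the only relative with a level like that of *Svop*, at 9059 counts in total. At 6 h it stood at 11.9, 18.1, 7.92 and 9.56 CPM in mock-irradiated cells, at 8.60, 18.8, 10.2 and 11.6 CPM after 0.1 Gy and at 12.9, 14.6, 8.87 and 8.38 CPM after 2 Gy. The 3 groups overlapped. The values at 24 h were 16.1, 16.4, 18.8 and 13.6 CPM in mock-irradiated cells, 17.1, 21.8, 20.6 and 17.0 CPM after 0.1 Gy and 20.1, 19.5, 16.9 and 17.2 CPM after 2 Gy, again with overlap.

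No dose changed *Sv2a* past the test. The log2 fold change at 24 h after 2 Gy was 0.19 (SE 0.17, 95% interval -0.19 to 0.57, adjusted p = 0.94 in edgeR), and 0.19 with the block (-0.07 to 0.45, adjusted p = 0.28). It was -0.08 at 6 h after 2 Gy (-0.74 to 0.57, adjusted p = 1.00), and -0.06 with the block (-0.33 to 0.21). After 0.1 Gy it was 0.05 at 6 h and 0.23 at 24 h (adjusted p = 1.00 and 0.94), the latter from values higher in 4 of 4 pairs. Without number 2 the values after 2 Gy were 0.16 at 24 h and 0.043 at 6 h, and those after 0.1 Gy 0.15 at 24 h and 0.05 at 6 h. The block intervals after 2 Gy leave room for a change between -0.07 and 0.45 at 24 h and between -0.33 and 0.21 at 6 h, on the log2 scale. In the block fit, leaving out number 3 gave 0.31 at 24 h after 2 Gy with an adjusted p of 0.019, the single fit, of those run, in which *Sv2a* was called for a dose.

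The ratio of *Svop* to *Sv2a* per length of exon was then taken within each library, a measure added after the levels had been seen. In mock-irradiated cells at 6 h it was 0.928, 1.62, 0.613 and 0.835, and at 6 h after 2 Gy 1.76, 2.83, 1.67 and 1.63. The groups did not overlap, which held for the ratio to *Sv2a* of 0.256% of the 15993 other genes tested. The difference in log2 ratio was 1.03 (SD of the pair differences 0.28, n = 4) and 1.11 without number 2. A two-sided exact permutation test, which took the libraries as unpaired, gave p = 0.0286, the smallest that 4 against 4 libraries allow. It was 0.0857 after adjustment over the 3 ratio tests made, all of them unpaired. Without number 2 the smallest possible p of this test is 0.1. No permutation within the pairs of a number was made.

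At 6 h after 0.1 Gy the ratio was 1.21, 1.76, 0.460 and 0.869, a log2 difference of 0.04 from mock (exact permutation p = 0.886, adjusted p = 0.886). Between 24 h and 6 h after 0.1 Gy the log2 ratio differed by 0.41 (exact permutation p = 0.457, adjusted p = 0.686). At 24 h it was 0.967, 1.75, 0.757 and 1.04 in mock-irradiated cells, 1.14, 2.10, 0.833 and 1.32 after 0.1 Gy and 2.36, 3.40, 2.25 and 2.32 after 2 Gy. At that time every library after 2 Gy was above every other one, as held against mock for 0.0944% of the other genes, which is given as a description.

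**Figure D4:**
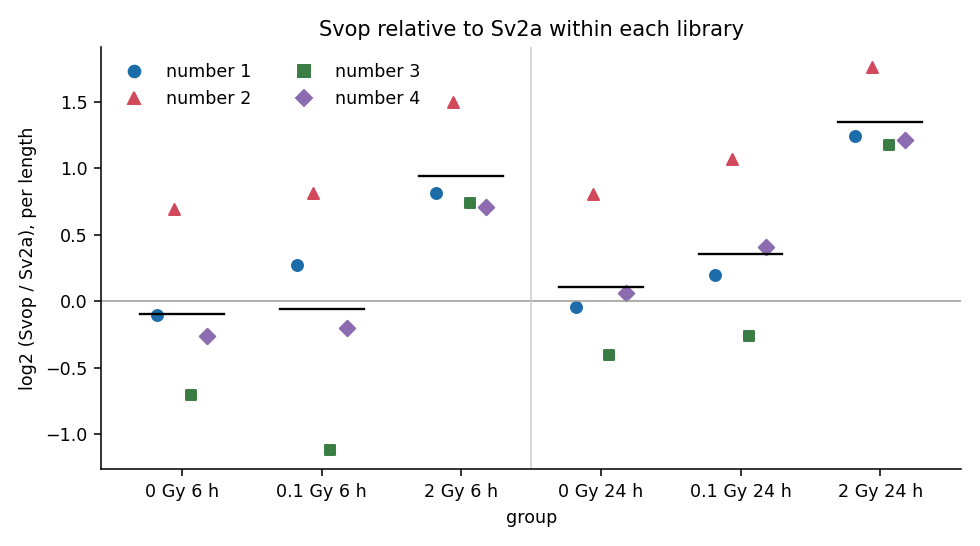
Log2 ratio of *Svop* to *Sv2a*, both per length of exon, in each library, with group means as lines and 0 marking equal levels. At both times all 4 libraries after 2 Gy lie above the 4 mock-irradiated ones, and number 2 is the highest in each group.

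*Sv2b* and *Sv2c* were rare in these cultures, with 211 and 352 counts over all libraries. At 6 h *Sv2b* stood at 0.198, 1.16, 0.596 and 0.147 CPM in mock-irradiated cells, at 0.403, 1.31, 0.157 and 0.139 CPM after 0.1 Gy and at 0.352, 1.30, 0.491 and 0.306 CPM after 2 Gy. The groups overlapped, and its log2 fold change of 0.21 (95% interval -1.35 to 1.77) had an adjusted p of 1.00 in edgeR. At 24 h it was represented by 17 counts in mock-irradiated cells, 14 after 0.1 Gy and 7 after 2 Gy, each over 4 libraries. The pooled levels were 0.185, 0.122 and 0.0821 CPM with exact Poisson 95% intervals of 0.108 to 0.297, 0.0665 to 0.204 and 0.0330 to 0.169 CPM, which overlap and cover counting error only. *Sv2b* was lower in 4 of 4 pairs at 24 h after either dose, on 0 to 7 counts per library, as were 21.9% of genes tested after 2 Gy and 16.2% after 0.1 Gy.

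*Sv2c* at 6 h stood at 1.14, 1.99, 0.980 and 0.490 CPM in mock-irradiated cells, at 1.18, 1.74, 0.707 and 0.166 CPM after 0.1 Gy and at 0.623, 1.23, 0.695 and 0.245 CPM after 2 Gy. After 2 Gy it was lower than mock in 4 of 4 pairs, as 8.55% of the genes tested were. The log2 fold change was -0.69 (SE 0.51, adjusted p = 1.00 in edgeR), and -0.72 with the block (SE 0.22, 95% interval -1.21 to -0.23) with an adjusted p of 0.55 and an unadjusted p of 0.0093. The value was -0.68 without number 2, and -0.29 or -1.09 without number 2 of only the mock-irradiated or only the 2 Gy libraries. It was negative where that of *Svop* was positive, without a call in these fits. At 24 h it did not pass the count filter, with 19, 29 and 11 counts over the 4 libraries of 0, 0.1 and 2 Gy.

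*Svopl* was all but undetected. It had 12 counts in 6 of the 24 libraries, at most 5 in 1 library, and entered no test with the count filter. At 24 h after 2 Gy it had 0 counts, which allows up to 0.0352 CPM over the group when 3 counts are taken as the floor. Mock-irradiated cells at 24 h had 6 counts, or 0.0654 CPM (exact Poisson interval 0.0240 to 0.142), so no difference was detectable at this depth.

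*Sv2c* passed the count filter for 24 h against 6 h in mock-irradiated cells and after 0.1 Gy, but not after 2 Gy. It passed only through the 6 h group, in which it is high. Its lower value at 24 h was thus set by the count filter and is given as a description. At 24 h against 6 h after 0.1 Gy, whose libraries were not used to choose *Svop*, *Svop* was 1.38 to 3.67 times higher and *Sv2a* 1.16 to 2.02 times higher, each in 4 of 4 pairs, as were 23.1% of the 16250 genes tested. *Sv2c* was lower in 3 of 4 pairs, with 1.18, 1.74, 0.707 and 0.166 CPM at 6 h and 0.363, 0.419, 0.130 and 0.173 CPM at 24 h. With the block *Svop* and *Sv2a* passed, at log2 fold changes of 1.06 (SE 0.19, adjusted p = 0.0036 in edgeR) and 0.67 (SE 0.16, adjusted p = 0.013). The value of *Sv2c* in that fit was -1.74. In that fit 11.8% of genes were called higher and 14% lower. Without the block neither *Svop* nor *Sv2a* passed (adjusted p = 0.40 and 0.15), while 9.9% of genes did. The calls thus rest on the block. Same-numbered libraries of the 2 times correlated across genes at 0.38, 0.85, 0.39 and 0.67 (numbers 1 to 4), against 0.54 to 0.93 within a time. Without number 2 the block fit kept *Svop* (1.28, adjusted p = 0.0054) and *Sv2a* (0.83, adjusted p = 0.013).

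At 24 h against 6 h after 2 Gy, *Sv2a* was higher in 4 of 4 pairs and its groups did not overlap, as for 8.74% of the genes tested. Its log2 fold change was 0.71 (SE 0.21, adjusted p = 0.082 in edgeR), and 0.74 with the block (SE 0.16, adjusted p = 0.014), with 8.82% of genes called higher. Leaving out number 4 ended that call (0.65, adjusted p = 0.11). Same-numbered libraries of the 2 times correlated across genes at 0.25, 0.83, 0.49 and 0.67 here (numbers 1 to 4). *Svop* had a value of 1.15 in the block fit, given as a description. *Sv2b* at 24 h was below every 6 h library, as were 9.36% of genes, but it did not pass the count filter there. It entered a fit of all 24 libraries through the 6 h groups, in which it is high, so its value of -2.82 in that fit is a description.

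In mock-irradiated cells, *Svop* and *Sv2a* overlapped between 24 h and 6 h, with log2 fold changes of 0.43 and 0.43. Leaving out single libraries moved these to between 0.14 and 1.19 for *Svop* (lowest without number 2 at 24 h, highest without number 2 at 6 h) and between 0.27 and 0.73 for *Sv2a* (lowest without number 3 and highest without number 2, both at 6 h). Without number 2 at both times they were 0.88 and 0.73. The value of *Sv2a* did not pass (adjusted p = 0.34 in edgeR), and that of *Svop* is a description, since it was compared with these 24 h libraries when it was chosen. *Sv2c* stood at 0.167, 0.466, 0.184 and 0 CPM at 24 h, below all of its 6 h values, as did 7.44% of the 15887 genes tested. Its log2 fold change was -2.47, and -2.74 without number 2. Fits with the library number as a block, which was not taken as a pairing here, gave -2.55. Of all genes 6.7% passed without that block, and 7.26% higher and 8.02% lower with it.

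The interaction of 2 Gy and time was not called for *Sv2a*, nor for any gene (0%, with 4.9% at an unadjusted p under 0.05). The log2 value of *Sv2a* was 0.28 (95% interval -0.43 to 0.99, adjusted p = 0.87 in edgeR), and 0.26 with the block (adjusted p = 0.32), which called 3.55% of genes higher and 3.23% lower. The values of *Svop* (0.62) and of *Sv2b* (-1.30), which passed the filter through the 6 h groups, are descriptions.

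**Figure D5:**
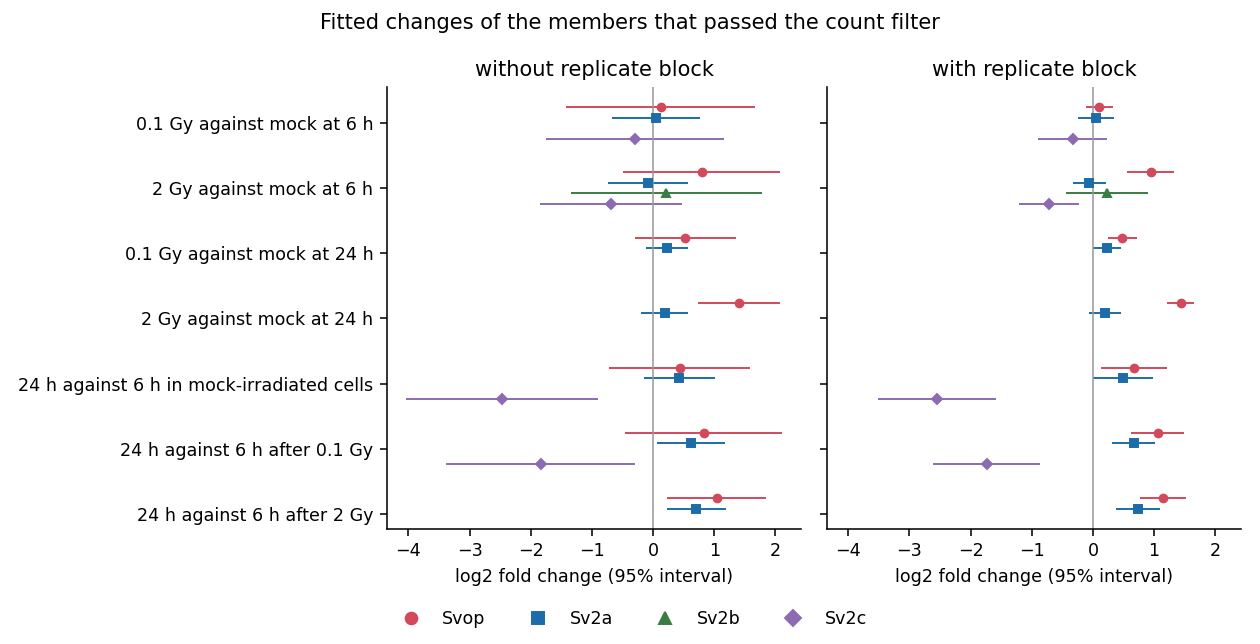
Log2 fold changes with 95% intervals of the members that passed the count filter, in 4 dose comparisons and 3 time comparisons, without and with the library number as a block. With the block the *Svop* interval after 2 Gy lies above that of *Sv2a* at both times, and those of *Sv2a* for 24 h against 6 h after 0.1 Gy and 2 Gy lie above 0. The intervals of *Svop* that involve 2 Gy or mock-irradiated cells at 24 h and those of *Sv2c* for 24 h against 6 h are descriptive.

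Per length, as CPM per kb of exon, *Svop* and *Sv2a* made up nearly all of the summed level of the 5 genes. In mock-irradiated cells at 6 h *Svop* stood at 2.86 ± 2.36 and *Sv2a* at 2.56 ± 0.961 on this scale (SD, n = 4), against 0.124 ± 0.0670 for *Sv2c* and 0.0627 ± 0.0558 for *Sv2b*. At 24 h after 2 Gy *Svop* stood at 10.3 ± 2.78 and *Sv2a* at 3.97 ± 0.349. The share of *Svop* in the sum of the 5 genes was 46.7% ± 9.89 in mock-irradiated cells at 6 h, 64.3% ± 5.26 at 6 h after 2 Gy, 51.4% ± 8.39 in mock-irradiated cells at 24 h and 71.5% ± 3.67 at 24 h after 2 Gy. *Sv2a* made up most of the rest, between 28.3% at 24 h after 2 Gy and 49.8% in mock-irradiated cells at 6 h. The shares of *Sv2b* and *Sv2c* were 1.16% and 2.35% in mock-irradiated cells at 6 h and 0.0663% and 0.0786% at 24 h after 2 Gy.

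Synaptic vesicle genes beyond this family had no common direction at 24 h after 2 Gy. Of a list of 52 genes, 40 were tested at 24 h after 2 Gy, 21 of them with a positive and 19 with a negative value, with a median of 0.01 against 0.01 over all genes. None passed in edgeR's quasi-likelihood test without the block, as 0% of genes did (3.59% had an unadjusted p under 0.05). With the block 2 were called higher and 0 lower, against 6.53% and 6.69% of all genes. They were *Syp*, which encodes the vesicle membrane protein synaptophysin (0.57, adjusted p = 0.028), and *Syngr1*, which encodes synaptogyrin-1 (0.50, adjusted p = 0.017). The lowest values were those of *Slc17a8*, the vesicular glutamate transporter VGLUT3 (-0.66), and *Slc18a2*, the vesicular monoamine transporter VMAT2 (-0.53), which did not pass (adjusted p = 0.94 for both).

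The list had, at 24 h after 0.1 Gy, a median of -0.03 over 40 genes, and 1 was called with the block, *Syp* (0.56, adjusted p = 0.048), beside 2.34% of all genes called higher and 4.5% lower. The other genes at the ends of the list were *Syngr1* (0.31), *Slc17a8* (-0.65) and *Rab27b* (-0.35), a small GTPase of secretory vesicles (adjusted p = 0.94 for each). Between 2 Gy and 0.1 Gy at 24 h, where 1.34% of genes had an unadjusted p under 0.05 and none was called, the ends were *Syn3* (0.33), *Vamp1* (0.26), *Rims1* (-0.33) and *Syt4* (-0.21), with an adjusted p of 1.00 for each. At 6 h, where 0% of all genes were called with or without the block after both doses, the list had medians of -0.02 after 2 Gy and -0.03 after 0.1 Gy over 42 genes.

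With time, more genes of this list had negative than positive values (30 and 12 in mock-irradiated cells). In mock-irradiated cells the median at 24 h against 6 h was -0.20 over 42 genes, against -0.02 over all genes. *Cplx2*, which encodes a complexin, was called lower (-0.72, adjusted p = 0.030). In all, 2 of the 42 genes were called lower and 0 higher, beside 6.7% of all genes called in either direction. After 0.1 Gy, *Syt4* (-2.31, adjusted p = 0.032) and *Slc10a4* (-1.89, adjusted p = 0.047) were called lower. *Syt1*, the calcium sensor synaptotagmin-1 of vesicle release, was called higher (0.88, adjusted p = 0.039). Of the 42 genes tested there, 3 were called lower and 1 higher, beside 9.9% of all genes called in either direction. After 2 Gy *Syt4* was again called lower (-2.36, adjusted p = 0.046). The list had 2 genes called lower and 0 higher in that comparison, beside 6.95% of all genes called in either direction.

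Of 25 SLC22 transporter genes, the nearest relatives outside the family, 7 or 8 passed the count filter. Of the 7 tested at 24 h after 2 Gy, 4 were positive, with a median of 0.21. *Slc22a17*, the lipocalin-2 receptor, was the 1 gene called with the block (0.61, adjusted p = 0.011), in a fit that called 6.53% of all genes higher and 6.69% lower, and without it the adjusted p was 0.93. The highest value was that of *Slc22a18* (0.65, adjusted p = 0.94), and the lowest were those of *Slc22a21* (-0.16) and *Slc22a15* (-0.08). None was called at 24 h after 0.1 Gy, the ends being *Slc22a12* (0.45), *Slc22a17* (0.39), *Slc22a15* (-0.20) and *Slc22a23* (-0.06). Between the doses at 24 h the ends were *Slc22a18* (0.52), *Slc22a17* (0.21), *Slc22a12* (-0.14) and *Slc22a21* (-0.12), with an adjusted p of 1.00 for each. *Slc22a21*, a carnitine transporter gene, was lower at 24 h than at 6 h in mock-irradiated cells (-0.96, adjusted p = 0.031), after 0.1 Gy (-0.89, adjusted p = 0.041) and after 2 Gy (-0.99, adjusted p = 0.040), where 6.7%, 9.9% and 6.95% of all genes were called in either direction.

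Base composition moved with dose in these libraries. The exons of *Svop* are 57.0% GC, above 91.2% of genes, and those of *Sv2a* 54.1%. The 1338 genes tested within 1 percentage point of the *Svop* value had a median log2 fold change of 0.24 at 24 h after 2 Gy, and the 1764 genes near the *Sv2a* value one of 0.14. At 6 h after 2 Gy the 1352 genes near *Svop* had a median of -0.09, opposite in sign to the value of *Svop*. The median of such genes at 24 h after 0.1 Gy was 0.18, beside 0.53 for *Svop*. With the GC and length correction in the block fit, *Svop* stood at 1.22 at 24 h and 1.00 at 6 h after 2 Gy.

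The likeness of other genes to *Svop* was measured as Pearson's r of log2 CPM over the 24 libraries, each gene centred on its mean over the 3 doses of a library number and time. These values are a description across libraries that share their treatment and base composition and include those *Svop* was chosen on. The highest among 17352 genes were *St14*, the membrane protease matriptase (r = 0.97), *Ckmt1*, a mitochondrial creatine kinase (0.96), *Pgf*, placental growth factor (0.96), *Cpt1c*, a carnitine palmitoyltransferase of brain (0.94), and *Dcxr*, a dicarbonyl and L-xylulose reductase (0.94). The group mean of *St14* at 24 h was 10.8 CPM in mock-irradiated cells and 18.8 CPM after 2 Gy, and that of *Dcxr* 29.0 and 56.9 CPM. The lowest were *Set*, a histone chaperone (-0.94), *Ezh2*, the Polycomb methyltransferase (-0.93), the mitotic kinesins *Kif2c* (-0.92) and *Kif20a* (-0.91), and the spindle gene *Dlgap5* (-0.91). Of the relatives, *Sv2a* had an r of 0.26 and ranked 4772, *Sv2b* -0.25 and *Sv2c* -0.41.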

How the data were processed

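Poly(A)-selected RNA was sequenced as paired reads by a service provider. The authors deposited unnormalized read counts for every gene, with a file per library (24). The submitters' processing notes name the mouse build mm 10, and the aligner, counter and use of strand are not given in the sources used here. Groups and library numbers were taken from the sample labels. The 5 members and the gene lists were chosen with earlier results of these data known.

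The fits used edgeR 4.0.16 under R 4.3.3 (TMM scaling, filterByExpr, quasi-likelihood test, Benjamini-Hochberg adjustment over all genes tested) on the libraries of the groups compared, without a block. A call is an adjusted p under 0.05. SE and intervals of log2 fold changes come from these fits. Alternatives were the library number as a block, other scalings and filters, a joint fit of the 24 libraries, adjustment for GC and exon length, DESeq2 1.42.0, limma 3.58.1 (voom), and each library left out. The 24 h against 6 h comparisons after 0.1 and 2 Gy, the ratio test and some alternatives were added after the data had been seen. The fits were tested on simulated data.

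The labels do not say what a number marks. Same-numbered libraries deviated together within a time, with correlations across genes of 0.54 to 0.93 for each dose against mock, so the numbers were taken as pairs there. Between the times the lowest was 0.0623 in mock-irradiated cells, where they were not taken as pairs. After 0.1 Gy and 2 Gy the lowest was 0.38 and 0.25. Block fits between the times there rest on a weaker pairing than those within a time. The pairing thus comes from the counts. The study's methods call the 4 libraries of a condition biological repeats, and p-values measure the spread between them. No 2 libraries of a group differed by as little as sampling noise (chi-square per degree of freedom at least 25.9 in 36 pairs). The depth of 14742855 to 38194800 counts leaves *Svopl*, and *Sv2b* and *Sv2c* at 24 h, under the count filter of the dose comparisons. Named genes were the members, genes overlapping them, list genes at an adjusted p under 0.05 (at most 5 per list and comparison), the 2 highest and 2 lowest of each list at 24 h, list genes called with the block at 24 h, and the 5 genes most and least like *Svop*. Some list genes that met this rule are not reported here.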

Additional observations from a re-analysis of the deposited data

Results flagged for a closer look

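*Svop* in the mock-irradiated library of number 2 at 24 h stood far from the rest of its group, at 28.1 CPM against 13.9 to 15.3 CPM, a gap of 0.903 of the group's range, which is past Dixon's critical value for 4 samples. *Svopl* met the same criterion in 5 groups through 1 to 5 counts in a single library. The gap was 1.0 of the range in number 2 of mock-irradiated cells at 6 h, in number 1 at 6 h after 0.1 Gy, in number 2 at 6 h after 2 Gy and in number 1 at 24 h after 0.1 Gy, since the other libraries of those groups were at 0, and 0.842 in number 2 of mock-irradiated cells at 24 h. Chance flags about 1 in 20 groups, and 29 groups were looked at. That rate does not apply to groups with counts in a single library, where the gap is 1.0 whatever the count.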

How the results depend on the processing

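With the library number as a block, the count of members at an adjusted p under 0.05 went from 0 to 1 at 24 h after 2 Gy (*Svop*) and after 0.1 Gy (*Svop*), stayed at 0 after either dose at 6 h, and went from 0 to 1 in mock-irradiated cells at 24 h against 6 h (*Sv2c*, -2.55, adjusted p = 0.0043). It went from 0 to 3 after 0.1 Gy and to 2 after 2 Gy for 24 h against 6 h. The pairing by number comes from the counts and not from the labels. At 6 h after 2 Gy, the block with all 24 libraries, the GC-corrected block and DESeq2 with the block each gave 1 (*Svop*). The libraries at 6 h were not used to choose it. These fits also gave 1 at 24 h for 2 Gy against mock and against 0.1 Gy. At 6 h after 2 Gy the block with all 24 libraries called 0.369% of all genes higher and the GC-corrected block 0.771%. The main fit and the plain block called 0% there, and not *Svop*. No share of all genes called is given for DESeq2 with the block or for the block with a number left out. For 0.1 Gy at 24 h, 1 was given by DESeq2 with the block and by the block without number 1 or 3. DESeq2 without the block gave 1 at 24 h after 2 Gy. The block without each number gave 1 to 2 there (2 without number 3, with *Sv2a*), and 1 at 6 h after 2 Gy without number 4. In mock-irradiated cells at 24 h against 6 h, 1 (*Sv2c*) came from all 24 libraries in a fit, DESeq2, the GC and length correction, the newer quasi-likelihood method of edgeR and leaving out number 2, and 2 (*Svop* too) from DESeq2 with the block. Leaving out single libraries gave 0 to 1. After 0.1 Gy the time comparison gave 2 without number 2, and 2 to 3 for the block without each number. After 2 Gy it gave 1 with all 24 libraries (*Sv2b*), 1 without number 2 (*Svop*) and 2 for the block without each number (*Svop* with *Sv2a*, or, without number 4, with *Sv2c*). The calls of *Svop* in comparisons that use the 24 h libraries of 2 Gy or of mock-irradiated cells share libraries with its choice and are no support for a change. *Sv2b* and *Sv2c* enter the time comparisons through the 6 h groups, in which they are high, so their calls there are no support for a change. The cause of the other changes was not tested.

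Some small values changed sign. *Sv2a* at 6 h after 2 Gy was 0.043 without number 2 and 0.032 in the block fit without it, and the *Sv2c* interaction was -0.0098 by DESeq2 and -0.63 without number 2. With single libraries left out, values at 6 h after 2 Gy ranged from -0.24 to 0.19 (*Sv2a*) and -0.47 to 0.94 (*Sv2b*). At 6 h after 0.1 Gy they ranged from -0.67 to 0.87 (*Svop*), -0.24 to 0.33 (*Sv2a*), -0.76 to 0.11 (*Sv2c*) and -0.25 to 0.39 (the log2 ratio of *Svop* to *Sv2a*). For 2 Gy against 0.1 Gy at 24 h *Sv2a* ranged from -0.091 to 0.039. The interaction ranged from -0.13 to 1.04 (*Svop*), -0.0019 to 0.43 (*Sv2a*) and -1.33 to 0.74 (*Sv2c*). *Svop* after 2 Gy stayed positive, from 1.202 to 1.715 at 24 h and 0.36 to 1.53 at 6 h. Of the values not based on leaving out a library, 233 kept their direction and side of the threshold, 25 gained a call and 1 changed sign. With libraries left out, 206 kept both, 31 gained a call and 28 changed sign. Scaling by library size alone, DESeq2 size factors, a stricter filter and limma (voom), run on the dose comparisons, the interaction and the mock-irradiated time comparison, and no filter, run on all comparisons, changed no call or direction of a member tested. Depth puts *Svopl*, and *Sv2b* and *Sv2c* at 24 h, under the count filter of the dose comparisons.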
